A study of Homo sapiens with 2 samples.

Results

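The SWI/SNF complexes are ATP-driven machines that slide or evict nucleosomes and so open enhancers and promoters. They come in related forms that share an ATPase, SMARCA4 or SMARCA2. In canonical BAF and PBAF it is joined by a core of SMARCB1, SMARCC1, SMARCC2 and SMARCE1. Canonical BAF adds ARID1A or ARID1B, PBAF adds ARID2 and PBRM1, and a non-canonical BAF without ARID subunits also exists. Subunits of these complexes, ARID1A in particular, are recurrently mutated in gastric cancer. Described here are 10 subunit genes, ARID1A, ARID1B, ARID2, PBRM1, SMARCA2, SMARCA4, SMARCB1, SMARCC1, SMARCC2 and SMARCE1, chosen by name and matched by symbol. Their Ensembl identifiers are ENSG00000117713 (ARID1A), ENSG00000049618 (ARID1B), ENSG00000189079 (ARID2), ENSG00000163939 (PBRM1), ENSG00000080503 (SMARCA2), ENSG00000127616 (SMARCA4), ENSG00000099956 (SMARCB1), ENSG00000173473 (SMARCC1), ENSG00000139613 (SMARCC2) and ENSG00000073584 (SMARCE1). All 10 were among the 28303 genes listed, and all 10 had a mean FPKM of at least 1 (fragments scaled by exon length and by library depth), as did 11945 genes in all.

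The samples were cultures of HGC27, an established line from an undifferentiated human gastric carcinoma. The first had been transfected with the plasmid pcDNA3.1-linc01133, which carries the long non-coding RNA LINC01133, and the second with pcDNA3.1-control, and both were collected 48 h later. Each group held 1 library, so differences have no replicate check, no test was possible, and intervals cover counting error alone. Poly(A) RNA was sequenced from bulk cells, in which fewer expressing cells and less RNA per cell cannot be told apart.

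The libraries held 16302581 counted fragments with LINC01133 overexpression and 15666629 in the control. LINC01133 had an FPKM of 1.44 in the overexpression library and 0.0809 in the control, from 74 and 4 fragments. Of 10 markers of gastric epithelium 7 were listed, and KRT18, MUC5AC and TFF2 were listed at 0 in both libraries. CDH1, encoding E-cadherin, had 1 fragment in the overexpression library and 2 in the control. The summed FPKM of the epithelial markers was 1.63 with overexpression and 1.77 in the control. That of 9 mesenchymal markers was 790 and 803, and that of the 4 blood and endothelial markers with a value 2.24 and 2.82, in the same order. MUC1 had the highest level of the epithelial markers, with an FPKM of 1.13 with overexpression and 1.41 in the control. EPCAM, another of them, had 12 fragments with overexpression and 1 in the control, a ratio of 11.5 with a counting interval of 1.71 to 493. The part of these markers in the results was not tested.

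The PBAF subunits ARID2 and PBRM1 and the core subunit SMARCE1 were more than 2-fold higher in FPKM in the overexpression library. The ATPase SMARCA2, the core subunit SMARCC1 and ARID1B were higher by less. The subunits with the highest FPKM, SMARCA4 and SMARCB1, were lower, as were SMARCC2 and ARID1A. The higher group was, with the exception of ARID1B, the group with AT-rich transcripts. Among the 10 are 3 pairs of paralogues, and coding stretches of them are given first to compare the base composition of paralogues where the encoded residues are the same.

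The stretches are, for each pair, the longest run of residues that the paralogues share, written 5′ to 3′ on the coding strand. Capitals mark the bases that differ between the paralogues although the encoded residues are the same. The ATPases SMARCA2 and SMARCA4 were identical at 80.3% of 1552 aligned residues, and their longest shared run had 83 residues, read from GENCODE 29 transcripts. The run lies within chr9:2110388-2116040 (GRCh38, plus strand) in SMARCA2 and within chr19:11030864-11033508 (plus strand) in SMARCA4, over 2 coding exons in each gene.
SMARCA2: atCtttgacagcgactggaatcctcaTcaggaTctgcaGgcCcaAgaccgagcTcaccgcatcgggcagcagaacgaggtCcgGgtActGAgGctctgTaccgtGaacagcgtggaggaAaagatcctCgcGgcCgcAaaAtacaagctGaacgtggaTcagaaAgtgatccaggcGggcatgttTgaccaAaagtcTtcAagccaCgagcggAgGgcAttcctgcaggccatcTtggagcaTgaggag
SMARCA4: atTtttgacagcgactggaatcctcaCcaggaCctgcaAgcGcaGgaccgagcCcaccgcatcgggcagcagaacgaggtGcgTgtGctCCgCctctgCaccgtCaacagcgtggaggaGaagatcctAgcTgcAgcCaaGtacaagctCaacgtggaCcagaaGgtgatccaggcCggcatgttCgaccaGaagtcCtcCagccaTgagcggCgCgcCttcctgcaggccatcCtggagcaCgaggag

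Of the 35 differing bases in this run, 32 were the last base of a codon. At 20 of the 35, SMARCA2 had A or T where SMARCA4 had G or C, and at 7 the reverse. Over all 1247 identical residues, the last base of the codon was G or C in 57.5% of SMARCA2 codons and in 80.9% of SMARCA4 codons.

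The scaffold subunits SMARCC1 and SMARCC2 were identical at 67.7% of 1068 aligned residues, with a longest shared run of 52 residues. It lies within chr3:47662476-47670696 (GRCh38, minus strand) in SMARCC1 and within chr12:56171821-56172466 (minus strand) in SMARCC2.
SMARCC1: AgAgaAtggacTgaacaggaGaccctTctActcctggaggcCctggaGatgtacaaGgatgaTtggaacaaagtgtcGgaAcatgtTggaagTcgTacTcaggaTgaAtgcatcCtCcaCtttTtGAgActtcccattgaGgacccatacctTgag
SMARCC2: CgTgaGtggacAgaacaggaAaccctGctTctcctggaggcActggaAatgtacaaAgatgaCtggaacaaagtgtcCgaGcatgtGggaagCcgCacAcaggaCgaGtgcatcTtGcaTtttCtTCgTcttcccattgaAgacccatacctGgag

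Over the 723 identical residues of this pair the last codon base was G or C in 43.6% of SMARCC1 codons and in 61.3% of SMARCC2 codons. The pair ARID1B and ARID1A, identical at 61.4% of 2054 aligned residues, did not differ in this way. Its last codon bases were G or C in 65.2% of ARID1B and 65.1% of ARID1A codons at 1262 identical residues. Its longest shared run had 33 residues and lies within chr6:157181176-157184326 (plus strand) in ARID1B and within chr1:26767997-26771214 (plus strand) in ARID1A.
ARID1B: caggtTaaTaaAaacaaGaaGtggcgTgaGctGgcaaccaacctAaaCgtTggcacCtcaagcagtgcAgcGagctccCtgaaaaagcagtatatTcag
ARID1A: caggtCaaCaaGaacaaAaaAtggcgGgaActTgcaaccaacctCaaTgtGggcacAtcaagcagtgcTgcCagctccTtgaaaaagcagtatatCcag

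Of its 16 differing bases, 7 were A or T in ARID1B against G or C in ARID1A, and 7 the reverse. The 3′ UTRs of the pair did differ, with a GC content of 34.3% in ARID1B and 40.0% in ARID1A.

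The ATPases hydrolyse ATP and move the nucleosome, and a complex holds either SMARCA4 or SMARCA2. SMARCA4 (BRG1) had an FPKM of 70.5 in the overexpression library (95% counting interval 69.3 to 71.8) and 90.5 in the control (89.1 to 91.9). Its FPKM was the highest of the 10 in both libraries. It lay above 95.9% of all genes past the filter with overexpression and above 96.5% in the control. The ratio of overexpression over control was 0.779 (0.761 to 0.798). The gene lies on chromosome 19 (GRCh38, plus strand, 10960825 to 11079426). SMARCA2 (BRM) had an FPKM of 6.07 with overexpression (5.67 to 6.49) and 3.99 in the control (3.66 to 4.34), a ratio of 1.52 (1.36 to 1.70). It lies on chromosome 9 (plus strand, 1980290 to 2193624). As deposited, the alternative ATPases thus differed in opposite directions between the libraries. With trends on GC content and transcript length subtracted, as described below, the log2 ratio was 0.03 for SMARCA4 and 0.42 for SMARCA2. With trends by the longest coding transcript it was 0.06 for SMARCA4 and -0.03 for SMARCA2.

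The core subunits hold the complex together and contact the nucleosome. SMARCB1 (SNF5), which binds the acidic patch of the nucleosome, had an FPKM of 54.2 with overexpression (51.9 to 56.5) and 71.0 in the control (68.4 to 73.7). Its ratio was 0.763 (0.721 to 0.807). It lies on chromosome 22 (plus strand, 23786931 to 23838008), and 17.7% of its exon bases overlap DERL3 on the other strand. SMARCC1 (BAF155), a scaffold on which the complex assembles, had an FPKM of 28.2 with overexpression (27.3 to 29.2) and 20.3 in the control (19.5 to 21.1), a ratio of 1.39 (1.32 to 1.46). Its partner SMARCC2 (BAF170) had 23.6 with overexpression (22.8 to 24.4) and 26.1 in the control (25.3 to 27.0), a ratio of 0.901 (0.859 to 0.945). SMARCC1 lies on chromosome 3 (minus strand, 47585272 to 47782106), and SMARCC2 on chromosome 12 (minus strand, 56162983 to 56189567).

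SMARCE1 (BAF57), an HMG-box DNA-binding subunit of the core, had the largest ratio of the 10. Its FPKM was 2.39 with overexpression (2.08 to 2.74) and 0.903 in the control (0.714 to 1.13), a ratio of 2.65 (2.04 to 3.48). On the log2 scale of FPKM + 1 this was 0.83, since the added 1 weighs on a low level. The gene lies on chromosome 17 (minus strand, 40624962 to 40648864), and 19.8% of its exon bases are shared with 2 overlapping genes on the same strand, so its value is uncertain. Its fragments were also among those not fixed to a single number, and the smallest pair that the values allow, 215 with overexpression and 78 in the control, was used for the interval.

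The ARID1 proteins define canonical BAF and bind DNA with little sequence preference. ARID1A (BAF250A) had an FPKM of 7.69 with overexpression (7.36 to 8.04) and 8.35 in the control (7.99 to 8.71), a ratio of 0.922 (0.866 to 0.981), the value nearest to 1 among the 10. ARID1B (BAF250B) had 1.36 with overexpression (1.27 to 1.45) and 0.995 in the control (0.922 to 1.07), a ratio of 1.37 (1.24 to 1.51). ARID1A lies on chromosome 1 (plus strand, 26693236 to 26782110), and ARID1B on chromosome 6 (plus strand, 156776020 to 157210779). The FPKM of ARID1B was divided by 44058 bases of exon, whereas its transcript with the longest coding sequence has 10813 bases, so its level is understated beside genes with fewer annotated exons.

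ARID2 (BAF200) and PBRM1 (BAF180), a protein with several bromodomains that read acetylated histones, define PBAF. ARID2 had an FPKM of 5.12 with overexpression (4.81 to 5.44) and 2.09 in the control (1.89 to 2.31), from 1012 and 398 fragments. This gave a ratio of 2.44 (2.17 to 2.75), or 0.98 on the log2 scale of FPKM + 1. PBRM1 had 4.41 with overexpression (4.09 to 4.75) and 1.86 in the control (1.65 to 2.09), from 694 and 281 fragments, a ratio of 2.37 (2.06 to 2.74) and a log2 ratio of 0.92. ARID2 lies on chromosome 12 (plus strand, 45729665 to 45908040), and PBRM1 on chromosome 3 (minus strand, 52545352 to 52685917). Both PBAF subunits were at least 2.06-fold higher at the lower end of their counting intervals.

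**Figure D1:**
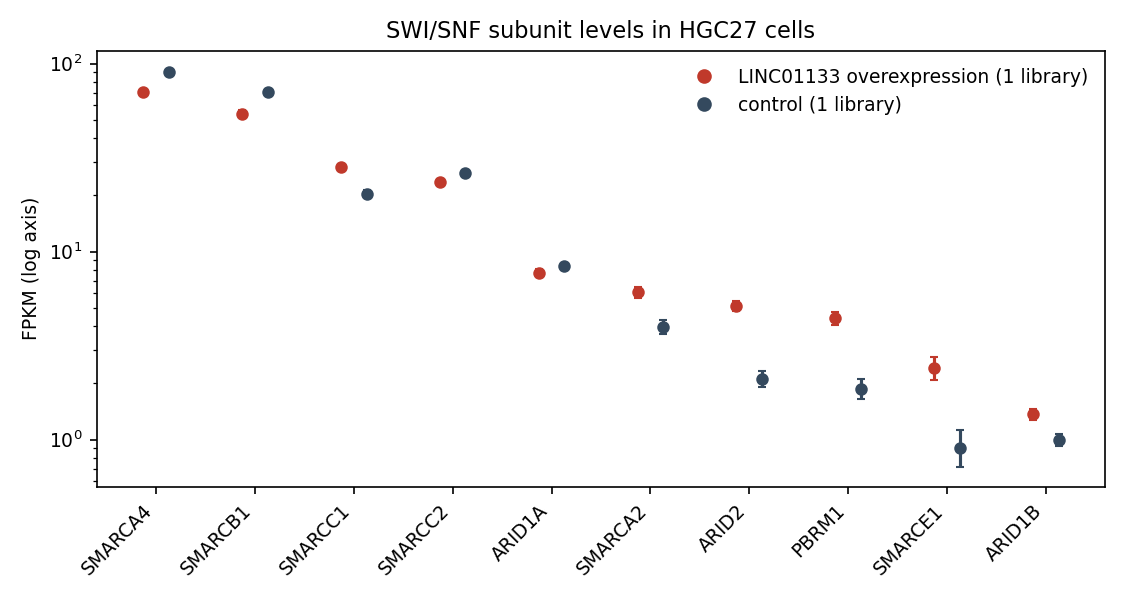
FPKM of the 10 subunits (log axis) in the LINC01133 overexpression library (red) and the control library (dark blue), 1 library each, ordered by the level with overexpression. Bars are 95% exact counting intervals, and the levels run from 1.36 to 70.5 with overexpression and from 0.903 to 90.5 in the control.

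In FPKM itself, 3 of the 10 (ARID2, PBRM1 and SMARCE1) were higher by 2-fold or more with overexpression and 0 lower by as much, beside 19.7% and 1.22% of all genes past the filter. In FPKM + 1, the scale used from here on, 0 of the 10 reached 2-fold in either direction, where 11.9% of all genes were higher and 0.444% lower. Counting intervals of the ratio left out 1 for all 10, but they also did so for 74.7% of the genes past the filter with whole fragments. A log2 ratio above 0 was found for 6 of the 10 and for 55.4% of all genes. The median log2 ratio of the 10 was 0.35, with a range of -0.38 to 0.98, and that of all genes was 0.10, with quartiles of -0.28 and 0.63. All 10 kept their direction under each of 3 other scalings, which shifted every log2 ratio of FPKM by -0.21 to -0.25.

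The order of the levels in FPKM differed in places. In the overexpression library it ran from SMARCA4 through SMARCB1, SMARCC1, SMARCC2, ARID1A, SMARCA2, ARID2, PBRM1 and SMARCE1 to ARID1B, with no overlap between the intervals of neighbours. In the control SMARCC2 stood above SMARCC1 and ARID1B above SMARCE1. There the intervals of ARID2 and PBRM1 overlapped, as did those of ARID1B and SMARCE1, so their order was not detectable at this depth. These levels are per base of the exon length used by the authors. For SMARCB1 lengths of 2481 and 17367 bases, among others, fit the values, beside a transcript of 1717 bases. Its place next to SMARCA4 per base of transcript was therefore not fixed. The ratios ran largely against the levels, with a Spearman correlation of -0.733 between the log2 ratio and the mean FPKM over the 10 genes, which share both libraries.

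The log2 ratios also followed base composition. Across the 10 genes log2 ratio and transcript GC content had a Spearman correlation of -0.964, and across 11913 genes past the filter it was -0.797, as a description of genes that share both libraries. With the GC content of the last codon base it was -0.903 over the 10, and with that of the 3′ UTR -0.842. All 5 subunits whose transcript was under 50% GC were higher in the overexpression library, namely ARID2 (40.8%), PBRM1 (44.6%), SMARCE1 (44.8%), SMARCC1 (46.7%) and SMARCA2 (48.7%), as were 88.7% of all genes under 50% GC. Of the other 5, ARID1B (53.7%) was higher, with a log2 ratio of 0.24, and SMARCC2 (54.8%), ARID1A (57.5%), SMARCB1 (59.1%) and SMARCA4 (59.9%) were lower, from -0.10 for ARID1A to -0.38 for SMARCB1. Among all genes at 50% GC or more, 20.2% were higher, so both counts lie near those of genes of the same GC content. The part of base composition in these differences was not tested.

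**Figure D2:**
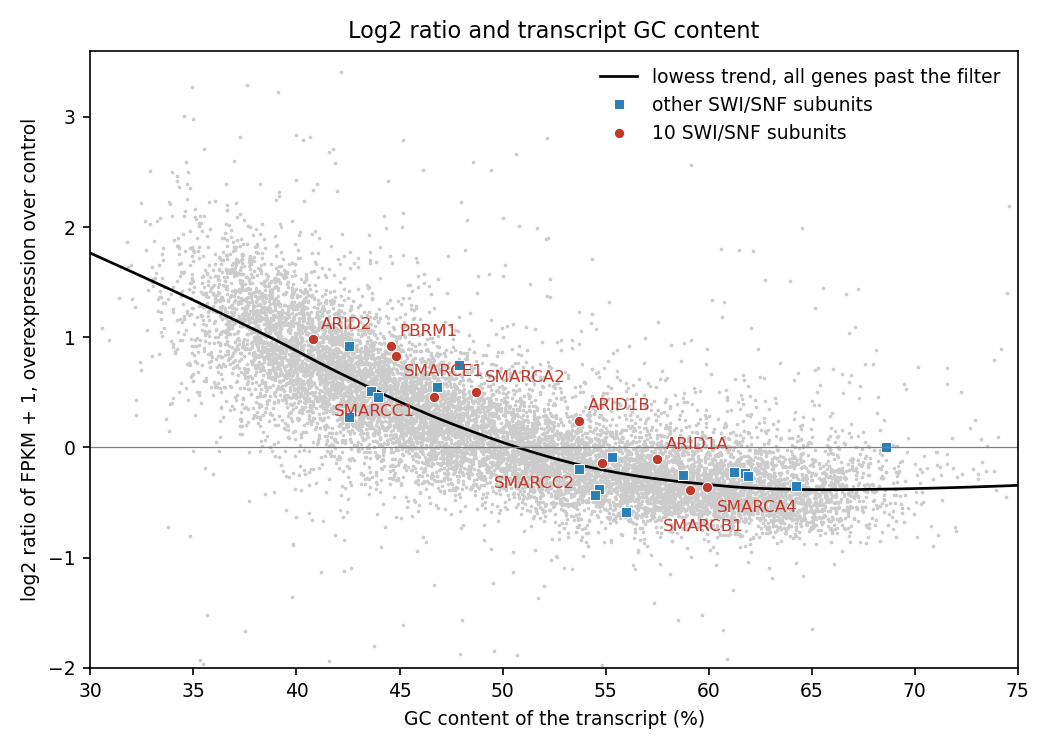
Log2 ratio of FPKM + 1, overexpression over control, against the GC content of the transcript for genes past the filter (grey), the 10 subunits (red circles) and other SWI/SNF subunits (blue squares) (points beyond the axes are not drawn). The line is the lowess trend of all genes, and the 10 subunits run down along it from ARID2 at 0.98 to SMARCB1 at -0.38.

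With the trends of all genes on GC content and transcript length subtracted, the 10 values drew together. They ranged from 0.03 to 0.53 with a median of 0.22, where the median of all genes was 0.10 with quartiles of -0.08 and 0.30. Above that median lay 9 of the 10, SMARCB1 just so, but 8 with the GC content trend alone subtracted and 7 with trends by the longest coding transcript. ARID2 went to 0.22, PBRM1 to 0.53, SMARCE1 to 0.45, SMARCA2 to 0.42 and SMARCC1 to 0.22. ARID1B, which lay farthest above the trend among the GC-rich members, went to 0.43. The 4 subunits that were lower as deposited turned above 0, ARID1A to 0.22, SMARCC2 to 0.14, SMARCB1 to 0.10 and SMARCA4 to 0.03. The subtraction keeps the median of all genes at 0.10, so SMARCA4 stayed below that median and SMARCB1 lay near it. With GC content and length taken from the longest coding transcript instead, PBRM1 had 0.14 and SMARCA2 -0.03, the values that moved most among the 10.

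Within the paralogue pairs, shares of the summed FPKM differed between the libraries. SMARCA2 made up 7.93% of the ATPase pair with overexpression (7.43% to 8.45%) and 4.23% in the control (3.89% to 4.59%), while the summed FPKM of the pair was 76.6 and 94.5. ARID1B made up 15.0% of the ARID1 pair with overexpression (14.0% to 16.0%) and 10.7% in the control (9.85% to 11.5%), with sums of 9.05 and 9.34. SMARCC2 made up 45.5% of the scaffold pair with overexpression (44.3% to 46.7%) and 56.3% in the control (55.0% to 57.5%), with sums of 51.8 and 46.5. In each pair the paralogue with the lower transcript GC content held a larger share with overexpression than in the control. The counting intervals of these shares did not overlap, but shares were not computed for other gene pairs. Counting intervals of the ratio left out 1 for 74.7% of the genes past the filter with whole fragments.

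These shares depend on the exon lengths used by the authors. With fragments divided by the length of the transcript with the longest coding sequence, SMARCC2 held 59.1% with overexpression and 69.0% in the control, so it stood above SMARCC1 in both libraries. On that scale ARID1B held 28.0% with overexpression and 20.8% in the control. For SMARCA2 the share on that scale could not be fixed, because several exon lengths fit its values and those of SMARCA4. It was 11.2% with overexpression and 6.09% in the control by the lengths nearest to GENCODE 29, 5.94% and 3.14% by the shortest, and between 3.06% and 15.9% with overexpression and 1.59% and 8.86% in the control over all that fit. The log2 ratio of SMARCA2 exceeded that of SMARCA4 by 0.86, or by 0.39 with the trends subtracted, but with trends by the longest coding transcript the difference turned to -0.094. ARID1B exceeded ARID1A by 0.35, or 0.21. SMARCC2 differed from SMARCC1 by -0.60, and by -0.08 with the trends subtracted.

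**Figure D3:**
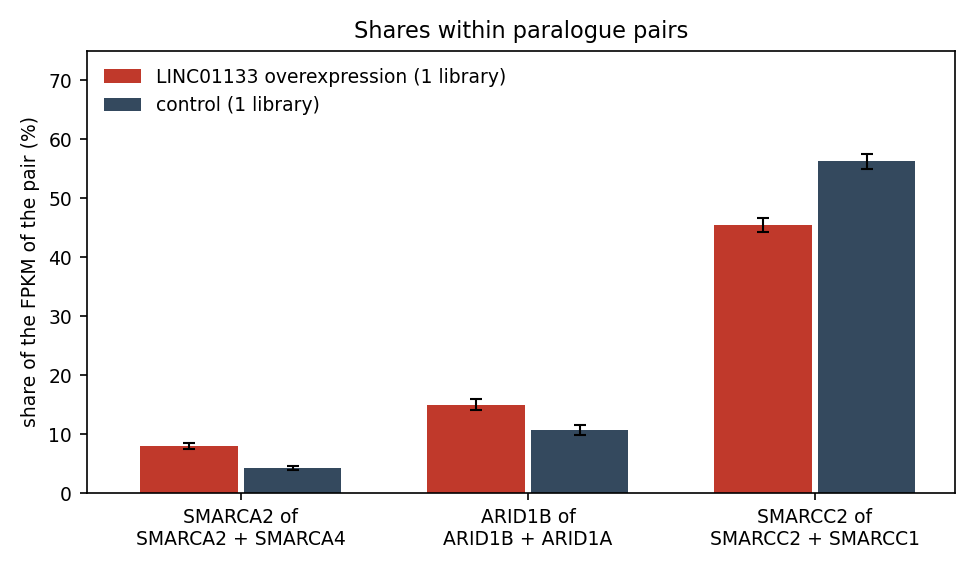
Share of the FPKM of each paralogue pair held by SMARCA2, ARID1B and SMARCC2 in the LINC01133 overexpression library (red) and the control library (dark blue), 1 library each, with 95% counting intervals. The share is 7.93% against 4.23% for SMARCA2, 15.0% against 10.7% for ARID1B and 45.5% against 56.3% for SMARCC2.

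The remaining subunits of the complexes, 19 genes on a list of accessory, signature and actin-related members, went both ways. Of 17 past the filter, 7 had a log2 ratio above 0, beside 55.4% of all genes, and 0 reached 2-fold in FPKM + 1 in either direction, beside 11.9% higher and 0.444% lower. Their median was -0.20, and 0.18 with the trends subtracted. Of the 17, 6 had a transcript under 50% GC, and all 6 were above 0. Among all genes 88.7% of those under 50% GC were above 0, and 20.2% of those at 50% GC or more. ACTL6B, a neuronal subunit, and DPF3 were under the filter, with 2 and 26 fragments in the overexpression library and 0 and 18 in the control.

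All 4 subunits particular to PBAF had a log2 ratio above 0, beside 55.4% of all genes, and the grouping was made after the values were seen. Beside ARID2 and PBRM1 these are PHF10, a PHD-finger subunit, and the bromodomain protein BRD7. PHF10 had an FPKM of 11.2 with overexpression and 6.24 in the control, a ratio of 1.79 (1.61 to 1.99). BRD7 had 20.7 with overexpression and 14.2 in the control, a ratio of 1.46 (1.37 to 1.54), and 42.4% of its exon bases overlap genes on the other strand. The summed FPKM of the 4 PBAF subunits was 41.4 with overexpression and 24.4 in the control. Their log2 ratios ran from 0.51 to 0.98, and from 0.12 for BRD7 to 0.73 for PHF10 with the trends subtracted. By the longest coding transcript PHF10 had -0.27, the only one of the 4 that turned. All 4 transcripts were under 50% GC, where 88.7% of all genes were above 0, and the part of base composition was not tested.

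The subunits particular to canonical BAF were mostly lower as deposited. DPF2, a PHD-finger subunit of that form, had an FPKM of 13.5 with overexpression and 18.6 in the control, a ratio of 0.728 (0.683 to 0.776). Its relative DPF1 had 1.42 with overexpression and 1.90 in the control. Of the 4 canonical BAF subunits past the filter, ARID1A, ARID1B, DPF1 and DPF2, only ARID1B had a log2 ratio above 0. All 4 transcripts were at 50% GC or more, where 20.2% of all genes were above 0, beside 55.4% at any GC content. The part of base composition was not tested. The summed FPKM of the 4, DPF3 left out, was 24.0 with overexpression and 29.8 in the control. With the trends subtracted 3 of the 4 lay above 0, DPF1 at 0.27 and ARID1A at 0.22 among them, as did 7659 of 11913 genes. The median of the 4 was 0.25, beside -0.18 as deposited. DPF2 stayed below 0, at -0.11, beside -0.43 as deposited.

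In non-canonical BAF, the bromodomain protein BRD9 had a ratio of 0.931 (0.840 to 1.03), with an FPKM of 4.72 with overexpression and 5.07 in the control. BICRA had a ratio of 1.01 (0.854 to 1.19) and its paralogue BICRAL 1.58 (1.32 to 1.90). The intervals of BRD9 and BICRA held 1, so a difference was not detectable at this depth, and the log2 ratio of BICRA, 0.0082, turned below 0 under each of the 3 other scalings. BICRAL, with a transcript at 44.0% GC, was at 0.0012 with the trends subtracted, beside 0.46 as deposited. On the same scale BRD9 was at 0.28, beside -0.086 as deposited, and BICRA at 0.44.

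SS18, the partner of SSX in the fusion of synovial sarcoma, had the largest log2 ratio of the other subunits as deposited. Its FPKM was 22.2 with overexpression and 11.3 in the control, a ratio of 1.97 (1.83 to 2.12), and its log2 ratio of 0.92 was 0.38 with the trends subtracted, below that of PHF10. Its paralogue SS18L1, a neuronal form, had 4.73 with overexpression and 2.91 in the control. The actin-related ACTL6A had 16.9 with overexpression and 13.8 in the control, and its log2 ratio of 0.27 turned to -0.20 with the trends subtracted. Beta-actin itself, ACTB, is a subunit as well as a cytoskeletal protein, and its FPKM of 1582 with overexpression and 2373 in the control gave the lowest log2 ratio of all subunits, -0.58.

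The SMARCD subunits, which link the core to transcription factors, were all lower. SMARCD1 had a ratio of 0.764 (0.728 to 0.802), SMARCD2 0.838 (0.797 to 0.881) and SMARCD3 0.843 (0.774 to 0.919). The BCL7 proteins BCL7A, BCL7B and BCL7C, small subunits of the ATPase module, had ratios of 0.846, 0.847 and 0.743. The transcripts of the SMARCD and BCL7 genes were between 53.7% and 64.3% GC. Among all genes at 50% GC or more, 20.2% were above 0, beside 55.4% at any GC content. The part of base composition was not tested. SMARCD1 stayed below 0 with the trends subtracted, at -0.09, while SMARCD2, SMARCD3 and the 3 BCL7 genes turned to values between 0.0070 and 0.34. The lowest of these, BCL7A, stayed below the median of all genes, 0.10. SMARCD3 and BCL7C share 13.8% and 13.2% of their exon bases with other genes, so their values are uncertain.

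**Figure D4:**
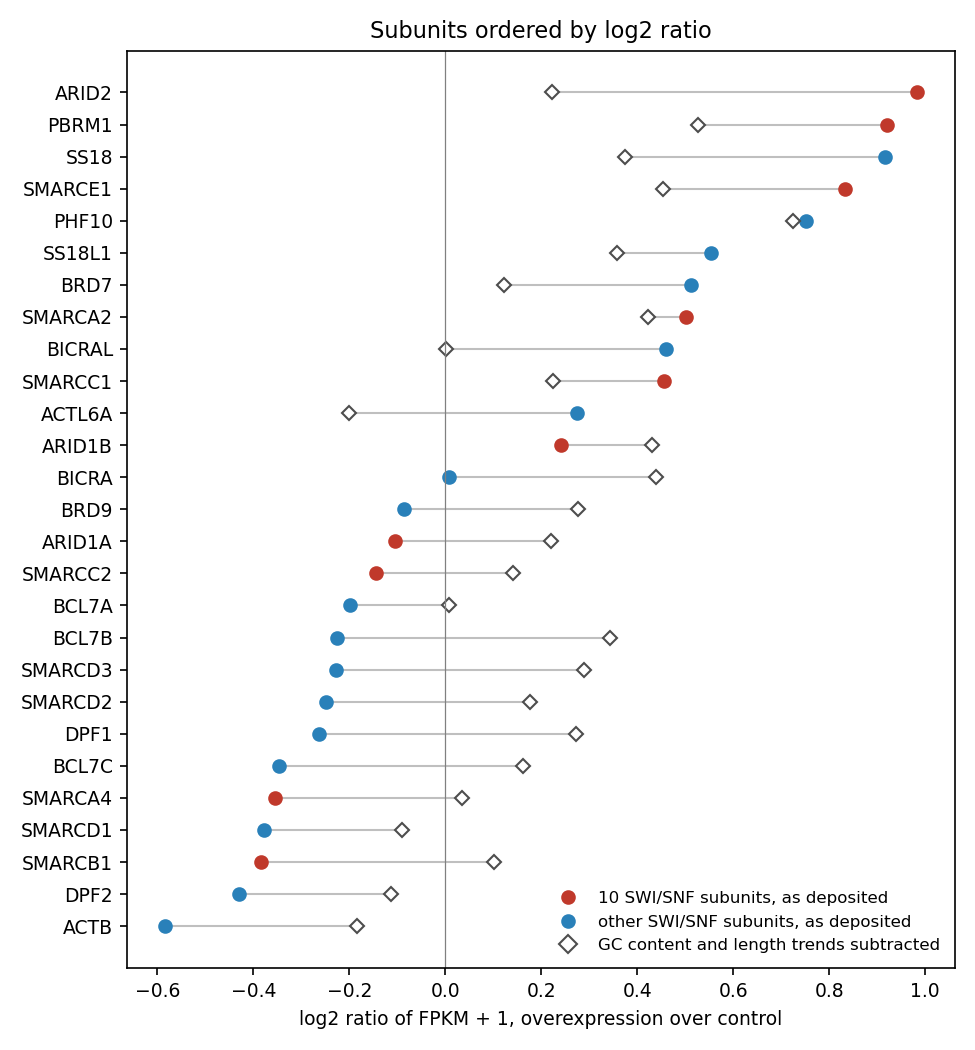
Log2 ratio of FPKM + 1, overexpression over control, of the 27 SWI/SNF subunits past the filter, the 10 described here in red and the others in blue, with open diamonds for the value with both trends removed. As deposited the values run from -0.58 for ACTB to 0.98 for ARID2, and after subtraction from -0.20 for ACTL6A to 0.73 for PHF10.

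Genes of the other families of chromatin remodellers (ISWI, CHD, INO80 and their partners) were set beside the SWI/SNF subunits. Of 38 with a mean FPKM over the threshold, 8 exceeded 2-fold in FPKM + 1 and 0 were lower by as much. Among all genes these were the 11.9% and 0.444% given above. The log2 ratio of 25 exceeded 0, beside 55.4% of all genes, and 23 of the 38 had a transcript under 50% GC. Their median was 0.26, or 0.15 with the trends subtracted. SMARCA5 and MBD3 share 13.5% and 11.7% of their exon bases with other genes. The 5 with the largest log2 ratios were the ATPases ATRX (ratio 4.81, 4.31 to 5.38), CHD1 (3.96), SMARCAD1 (4.56, 3.67 to 5.73), CHD9 (4.26, 3.73 to 4.87) and SMARCA5 (2.88, 2.63 to 3.17). The transcripts of these 5 were between 36.0% and 39.0% GC, lower than that of any of the 10 subunits, and with the trends subtracted their log2 ratios were between 0.29 and 0.55. The 5 with the smallest were subunits of the NuRD repressor complex, MBD3 (0.626, 0.588 to 0.666), MTA2, GATAD2A and MTA1, and the AAA+ ATPase RUVBL2 (0.703, 0.679 to 0.727). With the trends subtracted MTA1 turned to 0.17, and the other 4 lay between -0.13 for MBD3 and -0.013 for RUVBL2. As deposited no SWI/SNF subunit had a ratio as large as those of the 5 highest, although the interval of SMARCE1 held that of SMARCA5. With the trends subtracted PHF10, at 0.73, lay above all 5. PBRM1, SMARCE1, BICRA, ARID1B and SMARCA2 lay above SMARCA5 and SMARCAD1, and PBRM1 also above ATRX and CHD9. By the longest coding transcript PHF10 had -0.27, SMARCA2 -0.03 and PBRM1 0.14, while the 5 lay between 0.32 and 0.57. There SMARCE1, ARID1B and BICRA still lay above SMARCA5 and SMARCAD1. Whether the families differ was not tested.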

How the data were processed

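The libraries were made from poly(A)-selected RNA, per the labels' protocols. Each gene has 1 deposited value in each library, read here as FPKM because the values, multiplied by GENCODE 29 exon length, were whole multiples of 1 step per library within 0.02 of a fragment for 94.4% of the genes in the overexpression library and 94.5% in the control. Bowtie2 2.2.3, HISAT2 2.1.0, HTSeq 0.6.0 and GRCh38 are named in the submitters' processing notes, while the annotation release and the strand setting of the counting are not given in the sources used here. The step gave the depth and the fragments behind each gene.

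For 6 of the 10 subunits the exon length differed from GENCODE 29. It was then solved as the whole length, between 0.05 and 1.5 times that of GENCODE 29, that made both libraries whole within 0.0001 of a fragment. For 4 of them multiples of a length also did, and the shortest was used for the intervals, which it makes widest. Shares by fragments used the fitting length nearest to GENCODE 29, with the shortest as an alternative. Intervals are 95%, exact Poisson for a level, Clopper-Pearson of the conditional share for a ratio or a share, and they cover counting error only.

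Log2 ratios are those of FPKM + 1, overexpression over control, for genes whose FPKM averaged at least 1. There was no test. GC content and length are those of the GENCODE 29 transcript with the longest coding sequence, found for 99.7% of these genes. Lowess trends (span 0.3, statsmodels 0.14.6) on GC content and then on length were subtracted, keeping the median of all genes. The recovery of fragments with GENCODE 29 lengths, the subtraction of trends and the intervals of ratios were tested on simulated libraries. The solving of exon lengths, the intervals of levels, the shares and the alignments were not. Coding sequences were translated and aligned with Biopython 1.88. Python 3.11.15 and scipy 1.17.1 were used. All members of the subunit and target lists could be named, and of the other remodeller genes the 5 at each end of the log2 ratios. The members and lists were chosen with earlier results of these data known. Some choices were revised after values or annotation had been seen. The transcript was first the longest coding one, the range searched for exon lengths was widened after too few were found, and the printed stretches were extended to the whole shared run. The scaling factors were first split between the libraries and later applied to the overexpression library alone, and grouping by complex was added. Alternatives were other scalings, pseudocounts, filters and fold thresholds, the trends, and shares by fragments.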

Additional observations from a re-analysis of the deposited data

How the results depend on the processing

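No paired analysis was possible because only 1 library represents each group, and no library was left out for the same reason. Shares by coding transcript length or by the shortest lengths, values without a pseudocount and trends by the longest coding transcript were chosen after seeing the data. Depth limits SMARCE1 and PBRM1 most among the 10. Where a value moved, the cause was not tested. The 10 subunits had 80 single values under alternatives, 67 of them with the direction as deposited. The 13 others belonged to 5 genes, ARID1A, SMARCA2, SMARCA4, SMARCB1 and SMARCC2, each with trends subtracted. The median of all genes was 0.10 both as deposited and with trends subtracted, so a turned sign need not be a turn relative to it. SMARCA4 stayed below that median under each trend. ARID1A and SMARCC2 went from below to above it under each. SMARCB1 did so, at 0.101 against 0.097, only with both trends subtracted, and SMARCA2 fell below it only by the longest coding transcript.

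The 0 members at least 2-fold higher became 3 with a pseudocount of 0.1, 3 without one and 3 at 1.5-fold, where 18.8%, 19.7% and 26.8% of all genes were higher, and 0 members were lower under each setting tried. The members' median of 0.35 became 0.19, 0.19 and 0.16 by 3 scalings (median of ratios, TMM and upper quartile, always in this order), 0.44 with a pseudocount of 0.1, 0.46 without one, 0.22 with both trends subtracted, 0.29 with the GC content trend alone and 0.18 by the longest coding transcript. It turned to -0.12 when the mean FPKM had to reach 5, a filter that leaves out ARID1B, ARID2, PBRM1 and SMARCE1. Each of these was higher with overexpression, so the turn reflects which members were left. The median of the other subunits, -0.20, became -0.36, -0.37 and -0.39 by these scalings, -0.24 with a pseudocount of 0.1, -0.086 without a filter and -0.23 at a mean FPKM of at least 5, and turned to 0.18 with both trends and 0.17 with the GC content trend subtracted. That of the other remodellers, 0.26, became 0.078, 0.070 and 0.041 by the scalings, 0.29 with a pseudocount of 0.1, 0.15 and 0.20 with the trends, 0.24 without a filter and 0.0065 at a mean FPKM of at least 5.

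By fragments not divided by length, the share of SMARCA2 was 11.9% with overexpression and 6.45% in the control by the lengths nearest to GENCODE 29, and 6.30% and 3.33% by the shortest, while that of ARID1B 32.8% and 24.8%, and that of SMARCC2 48.3% and 59.0%. By coding transcript length these were 11.2% and 6.09% (5.94% and 3.14% by the shortest), 28.0% and 20.8%, and 59.1% and 69.0%. Among all genes, the 1421 at least 2-fold higher became 859 by the upper quartile, 2244 with a pseudocount of 0.1, 656 at a mean FPKM of at least 5 and 228 with both trends subtracted. The 53 lower became 140, 127, 10 and 92 under the same settings.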

Other observations

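Genes that other work has reported to depend on the SWI/SNF ATPases were also listed. Of 12 listed genes 10 were past the filter, 4 had a log2 ratio above 0, beside 55.4% of all genes, and 0 reached 2-fold in FPKM + 1 in either direction, beside 11.9% higher and 0.444% lower. Their median was -0.11, and -0.04 with the trends subtracted, against 0.10 for all genes. Of the 10, 3 had a transcript under 50% GC, and 2 of these were above 0. Among all genes 88.7% of those under 50% GC were above 0, and 20.2% of those at 50% GC or more. The cell cycle inhibitors CDKN1A and CDKN2A had an FPKM of 19.3 and 57.1 with overexpression and 26.3 and 92.4 in the control. The caveolar protein CAV1 had 10.04 with overexpression and 5.85 in the control, a ratio of 1.72 (1.51 to 1.95), and its log2 ratio of 0.69 was 0.21 with the trends subtracted. The cytokine CSF1 had a ratio of 0.632 (0.546 to 0.732), and its log2 ratio of -0.54 was -0.13 with the trends subtracted. The immediate early gene FOS had 0.852 with overexpression and 2.70 in the control, a ratio of 0.316 (0.220 to 0.445), and a log2 ratio of -0.75 with the trends subtracted. CD44, CCND1 and VIM, with log2 ratios of 0.11, 0.19 and 0.083, turned below 0 under each of the 3 other scalings. The matrix proteins SPARC and MMP2 had ratios of 0.984 and 0.865.

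After subtraction of both trends, the log2 ratio of the 10 subunits still ran against the mean FPKM, with a Spearman correlation of -0.891 over 10 genes that share both libraries. It was -0.758 with transcript GC content. Neither was computed over all genes or with trends by the longest coding transcript, under which PBRM1 and SMARCA2 moved most. These are descriptions of the 2 libraries.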
